A study of Mus musculus with 12 samples.

Results

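The cardiac and heart field transcription factors described here are *Gata4*, *Gata5*, *Gata6*, *Hand1*, *Hand2*, *Tbx5*, *Tbx20*, *Nkx2-5*, *Isl1* and *Tcf21*, a set of 10 genes chosen by name from the cardiac, epicardial and second heart field lineages. The choice was made with earlier results of these data known. All 10 were among the 54352 gene symbols counted, and 9 of them had at least 1 count in some library, the exception being *Gata5*. The RNA came from primary fibroblasts of the adventitia, the outer layer of the vessel wall, which grew out of tissue pieces from the aorta of wild-type (WT) C57Bl/6 mice aged 14 weeks by the sample labels. Cells of the ascending and of the descending aorta received either solute control or mouse TGFβ at 10 ng/mL for 48 h, which makes 4 groups of 3 libraries. All cells had left the vessel and been passaged in culture before treatment, and no group carried a transgene or deletion. The labels used here give no difference in batch between libraries, which does not show that there was none. It is not stated whether libraries with the same replicate number share animals, so p-values measure only the spread between these libraries.

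The libraries held 16250126 to 23892943 counts on genes, and levels are given as normalized CPM, the counts scaled to library size with edgeR's TMM factors. A count of 3 was taken as the floor of a library, which corresponds to 0.117 to 0.207 normalized CPM, and floors and intervals of count ratios cover counting error only. Descending control replicate 3 stood apart. It detected 13031 genes, where the other libraries detected 19337 to 20931, and 11.02% of its counts were mitochondrial against 0.703 to 1.03%. The tests of the factors that use this library are given with and without it. Tests are the two-sided quasi-likelihood F-test of edgeR, and a difference was called at a Benjamini-Hochberg adjusted p under 0.05 over all genes tested.

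GATA4, GATA5 and GATA6 are zinc finger proteins, HAND1, HAND2 and TCF21 are basic helix-loop-helix (bHLH) proteins, TBX5 and TBX20 are T-box proteins, and NKX2-5 and ISL1 are homeodomain proteins. Together they direct the formation of the heart tube, its outflow tract and its outer covering in the embryo. Progenitors of the second heart field, which are marked by ISL1, add to the outflow tract and the base of the ascending aorta, while the descending aorta forms from other mesoderm. TCF21 is also known from the epicardium and from fibroblasts, and TGFβ is a secreted factor that drives fibroblasts towards a contractile, matrix-producing state.

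The bases upstream of *Hand2*, *Tbx20* and *Isl1* are shown because their differences between sites or treatments are described at most length, and a short stretch of *Tcf21* because it holds a GATA motif. RefSeq gave a promoter sequence on GRCm38.p6 for 6 of the 10 genes, and those of *Gata4*, *Gata6*, *Hand1* and *Tbx5* were not used here. The 250 bases before the start were searched on both strands. Capitals mark matches to the GATA letters AGATAA (9.99% of the 32851 RefSeq promoter windows of this length hold one), to the CATCTG form of the E-box that bHLH proteins bind (14.4%), to the T-box letters AGGTGT (11.8%), to the NK2 letters AAGTG (40.7%) and to the SMAD letters CAGAC (42.2%).
Hand2, chr8:57320733-57320982, plus strand: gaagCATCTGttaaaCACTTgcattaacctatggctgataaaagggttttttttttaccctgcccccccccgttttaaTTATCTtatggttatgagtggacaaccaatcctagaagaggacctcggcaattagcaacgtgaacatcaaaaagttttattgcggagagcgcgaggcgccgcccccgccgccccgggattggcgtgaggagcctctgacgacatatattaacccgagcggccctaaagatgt
Tbx20, chr9:24774304-24774553, minus strand: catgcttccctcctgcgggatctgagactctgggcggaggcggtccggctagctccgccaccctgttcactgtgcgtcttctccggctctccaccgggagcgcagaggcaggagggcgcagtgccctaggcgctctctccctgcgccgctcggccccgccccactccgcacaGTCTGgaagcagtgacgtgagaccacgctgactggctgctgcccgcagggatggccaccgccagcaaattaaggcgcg
Isl1, chr13:116309690-116309938, minus strand: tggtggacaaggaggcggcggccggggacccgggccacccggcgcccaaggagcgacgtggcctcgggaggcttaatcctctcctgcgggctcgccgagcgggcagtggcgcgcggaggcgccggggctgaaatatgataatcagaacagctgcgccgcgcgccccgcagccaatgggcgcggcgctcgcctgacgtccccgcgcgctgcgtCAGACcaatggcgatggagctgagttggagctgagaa
Tcf21, chr10:22820157-22820186, minus strand: tctctattccccAGATAAattcttagtgtc

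In the *Hand2* window the CATCTG match began at -246, the NK2 match at -235 and the GATA match at -172 from the start. That of *Tcf21* held a GATA match at -31, which lies at the gene's first base in GENCODE, where the gene starts 31 bases further upstream than in RefSeq, and 3 SMAD matches. The windows of *Tbx20* and *Isl1* each held 1 SMAD match, at -78 and -38, and no match of the other kinds in capitals. The general E-box CANNTG, which overlaps the CATCTG form and is present in 66.2% of all windows, was found in those of *Hand2*, *Isl1*, *Nkx2-5* and *Gata5*. The window of *Isl1* was 71.2% G and C and that of *Hand2* 49.2%. A match describes letters and not a bound site.

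Ascending fibroblasts carried RNA of 9 of the 10 factors and descending fibroblasts a substantial amount of only *Gata6*, with little *Hand2*. In control cells *Gata4*, *Hand2*, *Tbx20*, *Isl1* and *Tcf21* were called higher in ascending fibroblasts, *Gata6* and *Tbx5* were tested and not called, and *Gata5*, *Hand1* and *Nkx2-5* had too few counts to be tested, where 1.19% of the 14090 genes tested were called in that direction and 1.47% in the other. Without descending control replicate 3 these 5 were called again (adjusted p from 8.82e-14 for *Tbx20* to 1.28e-08 for *Isl1* in edgeR's test), and *Gata6* and *Tbx5* were called as well, where 31.6% of 14644 genes were called in either direction. With any 1 ascending control library left out 2 factors were called, beside 0.226 to 0.295% of all genes, and with descending control replicate 1 or 2 left out 4 were, beside 0.538 to 0.756%. With the replicate number as a block 0 factors and 0 of all genes were called. With TGFβ, *Gata4*, *Gata6*, *Hand2*, *Tbx20*, *Isl1*, *Nkx2-5* and *Tcf21* were called higher in ascending fibroblasts and the other 3 were not tested, where 18.1% of 13678 genes were called in that direction and 18.2% in the other. Factors with few or no descending counts passed the filter only through the ascending group, so their calls and p are descriptions, the number called among those tested is no measure of how many factors differ, and the values of each one are given in turn. In bulk RNA, fewer cells of a type and less RNA per cell cannot be told apart.

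**Figure D1:**
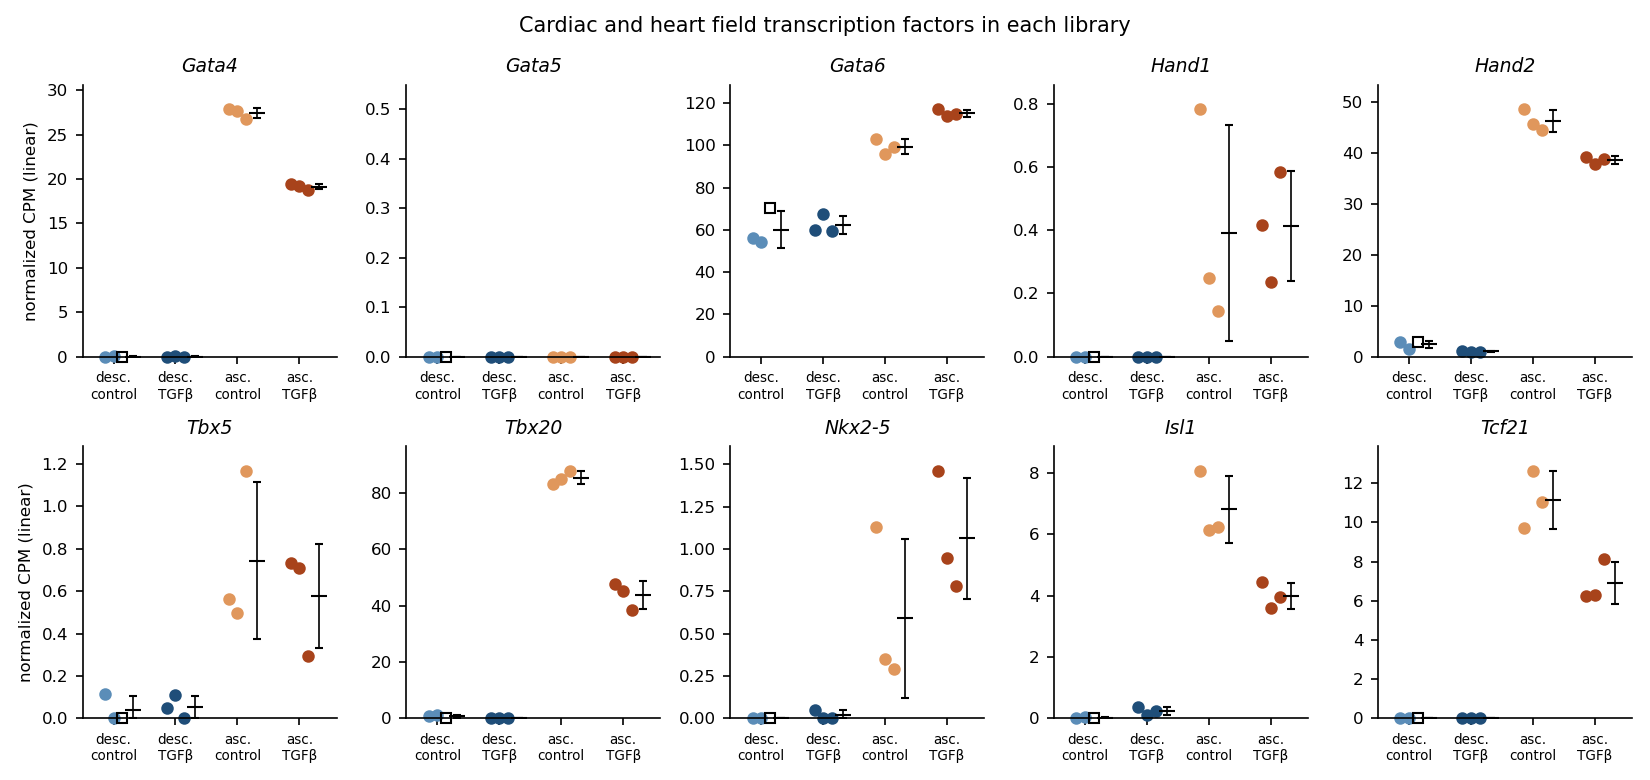
Normalized CPM (linear axis from 0, scaled to each gene) of the 10 factors in the descending (desc.) and ascending (asc.) libraries, 1 point per library, with the mean and SD of each group of 3 beside the points (lower bars stop at 0) and descending control replicate 3 as an open square. *Gata5* has no count, and each of the other factors has every ascending library above every descending one. The share of all genes with such a separation was not counted. *Gata6* is high at both sites, while *Hand1*, *Tbx5* and *Nkx2-5* rest on few counts.

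*Gata4*, which encodes a zinc finger factor needed for cardiac morphogenesis, lies on chromosome 14 of GRCm38 from 63198922 to 63271692. It had 27.8, 27.7 and 26.7 normalized CPM in the ascending control libraries and 19.4, 19.2 and 18.8 in the ascending TGFβ libraries. The 6 descending libraries held 2 single counts between them, 1 in a control and 1 in a TGFβ library. The sites did not come near each other in any library. Ascending control libraries held 1744 counts against 1, a ratio of 1736 after scaling (95% counting interval 311 to 68595), which was called with an adjusted p of 0.00155 in edgeR's test. It was 1338 (240 to 52872) without descending control replicate 3. With TGFβ it was 1134 (203 to 44826), from 1165 counts against 1.

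*Gata6*, a close relative of *Gata4* with a part in the outflow tract and in vascular smooth muscle, lies on chromosome 18 from 11052064 to 11085635. Its level was 103, 95.9 and 99.0 normalized CPM in the ascending controls. The descending controls had 56.1, 54.1 and 70.1, the last being replicate 3. Of the 10 factors it was the one with a high level at both sites, and its groups did not overlap between the sites. The log2 fold change in control cells was 0.73 (standard error 0.14) and was not called by edgeR (adjusted p = 0.0701), while DESeq2 called it (adjusted p = 0.000979). Without descending control replicate 3 it was 0.86 (standard error 0.06, adjusted p = 3.92e-08 in the same test). With TGFβ the ascending libraries had 117, 114 and 115 and the descending ones 60.0, 67.3 and 59.6, with 0.89 as log2 fold change (standard error 0.05, adjusted p = 3.85e-15 in edgeR's test).

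*Gata5*, the family member known from endocardium and early cardiac mesoderm, lies on chromosome 2 from 180325133 to 180334699 and had no count in the 12 libraries. With a floor of 3 counts this allows a level of up to 0.117 to 0.207 normalized CPM per library.

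*Hand2*, a bHLH factor of the second heart field, the outflow tract and the limb, lies on chromosome 8 from 57320983 to 57324633, next to the bases shown. Its level was 48.6, 45.7 and 44.5 normalized CPM in the ascending controls. In the descending controls it was 2.88, 1.60 and 2.90, so that RNA of *Hand2* was low but present in all 3. The log2 fold change was 4.24 (standard error 0.28, adjusted p = 0.00296 in edgeR's test), and 4.36 (standard error 0.14) without descending control replicate 3. With TGFβ the ascending libraries had 39.3, 37.8 and 38.9 and the descending ones 1.22, 1.03 and 0.945. No library of one site reached the other, and the log2 fold change with TGFβ was 5.18 (standard error 0.12, adjusted p = 1.28e-23 in edgeR's test).

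*Hand1*, the sister gene of *Hand2* with a part in the left ventricle and in extra-embryonic tissue, lies on chromosome 11 from 57828705 to 57832818. It had 18, 5 and 3 counts in the ascending controls, 8, 5 and 12 in the ascending TGFβ libraries and none in the 6 descending libraries. The low-count filter left it out of both site comparisons. Its level was at least 1.90-fold higher in ascending control and at least 2.54-fold higher in ascending TGFβ cells, computed against the highest floor of a descending library, and at least 3.02-fold higher in control without descending control replicate 3. An exact permutation test over the 12 libraries, with site labels permuted within treatment, gave a difference of 0.47 in mean log2(normalized CPM + 1) and a two-sided p of 0.005, the smallest that its 400 arrangements can give. Without descending control replicate 3 the difference was again 0.47, with an exact p of 0.01. It was higher in 6 of 6 ascending libraries, one of them at the floor.

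*Tbx20*, a T-box factor of the myocardium, the valves and the outflow tract, lies on chromosome 9 from 24718138 to 24774303. The ascending controls had 83.3, 85.1 and 87.9 normalized CPM. The descending controls had 24, 26 and 0 counts, which is 0.933, 1.13 and 0 normalized CPM, with the 0 in replicate 3. *Tbx20* thus varied little among the ascending controls, and its spread in the descending controls came with the library that stood apart. The log2 fold change was 6.85 (standard error 0.78, adjusted p = 0.0123 in edgeR's test), and 6.39 (standard error 0.10, adjusted p = 8.82e-14) without that library. With TGFβ the ascending libraries had 47.8, 45.2 and 38.4 and the descending ones 0.153, 0.163 and 0.284, from 3, 3 and 6 counts. The log2 fold change with TGFβ was 7.71 (standard error 0.18, adjusted p = 1.19e-23 in edgeR's test).

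*Tbx5*, the T-box factor of the forelimb, the atria and the left ventricle, lies on chromosome 5 from 119832668 to 119885219 and was scarce throughout. Its counts were 13, 10 and 24 in the ascending controls and 14, 15 and 6 in the ascending TGFβ libraries. The descending controls had 3, 0 and 0 counts and the descending TGFβ libraries 1, 2 and 0. Every descending library was at or under the floor and every ascending one above it. The ratio of summed counts after scaling was 15.6 (95% counting interval 5.02 to 78.3) in control and 11.4 (3.58 to 57.7) with TGFβ. In control cells it was not called by edgeR (adjusted p = 0.231), and it was called without descending control replicate 3 (adjusted p = 0.00549), with a ratio of 12.0 (3.87 to 60.4).

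*Isl1*, the LIM homeodomain factor that marks second heart field progenitors, lies on chromosome 13 from 116298281 to 116309689. It had 8.08, 6.14 and 6.23 normalized CPM in the ascending controls, and 0, 1 and 0 counts in the descending ones. The ratio of summed counts in control was 435 (95% counting interval 77.7 to 17217; adjusted p = 0.00694 in edgeR's test), and 335 (59.9 to 13271) without descending control replicate 3. With TGFβ the sites lay closer together. The ascending libraries had 4.44, 3.59 and 3.94 normalized CPM and the descending ones 7, 2 and 5 counts, which is 0.357, 0.108 and 0.236. The log2 fold change with TGFβ was 4.04 (standard error 0.33, adjusted p = 3.24e-11 in edgeR's test), and the libraries of the sites again did not overlap.

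*Nkx2-5*, a homeodomain factor of cardiac progenitors and myocytes, lies on chromosome 17 from 26838664 to 26845009. It had 26, 7 and 6 counts in the ascending controls and none in the descending controls, where the filter left it out of the test. Against the highest floor of a descending control it was at least 2.85-fold higher, and at least 4.54-fold higher without replicate 3. With TGFβ the counts were 28, 20 and 16 in ascending and 1, 0 and 0 in descending libraries. The ratio of summed counts was 62.3 (95% counting interval 10.8 to 2498). Its ascending control libraries differed among themselves more than those of *Tbx20* or *Gata4*, replicate 1 having 1.13 normalized CPM and the others 0.350 and 0.292.

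*Tcf21*, a bHLH factor of the epicardium and of cardiac and coronary fibroblasts, lies on chromosome 10 from 22817281 to 22820174. It had no count in the 6 descending libraries. The ascending controls had 9.69, 12.6 and 11.1 normalized CPM and the ascending TGFβ libraries 6.26, 6.29 and 8.13. Presence and absence thus followed the site in each of the 12 libraries. The level was at least 53.8-fold higher in ascending control cells, at least 85.5-fold higher without descending control replicate 3, and at least 42.4-fold higher in ascending cells with TGFβ.

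Per kilobase of exon, which allows levels of different genes to be set side by side, *Hand2* was highest in ascending control cells at 19.7 ± 0.901 normalized CPM per kb (SD, n = 3). *Gata6* followed at 15.3 ± 0.556, then *Tbx20* at 7.12 ± 0.191 and *Gata4* at 7.02 ± 0.154, a pair that differed by less than its spread. *Tcf21* was at 4.74 ± 0.628 and *Isl1* at 1.72 ± 0.276. *Nkx2-5*, *Hand1* and *Tbx5* came last at 0.343 ± 0.272, 0.197 ± 0.171 and 0.159 ± 0.0789, and their order lay within their spread. With TGFβ, *Gata6* at 17.7 ± 0.251 stood above *Hand2* at 16.4 ± 0.334, and *Gata4* at 4.91 ± 0.0826 above *Tbx20* at 3.65 ± 0.405. In descending control cells *Gata6* led at 9.23 ± 1.34 (8.47 ± 0.224 without replicate 3, n = 2), *Hand2* followed at 1.05 ± 0.315 (0.953 ± 0.383) and *Tbx20* at 0.0573 ± 0.0502 (0.0859 ± 0.0114). The other factors were at or under the floor there.

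**Figure D2:**
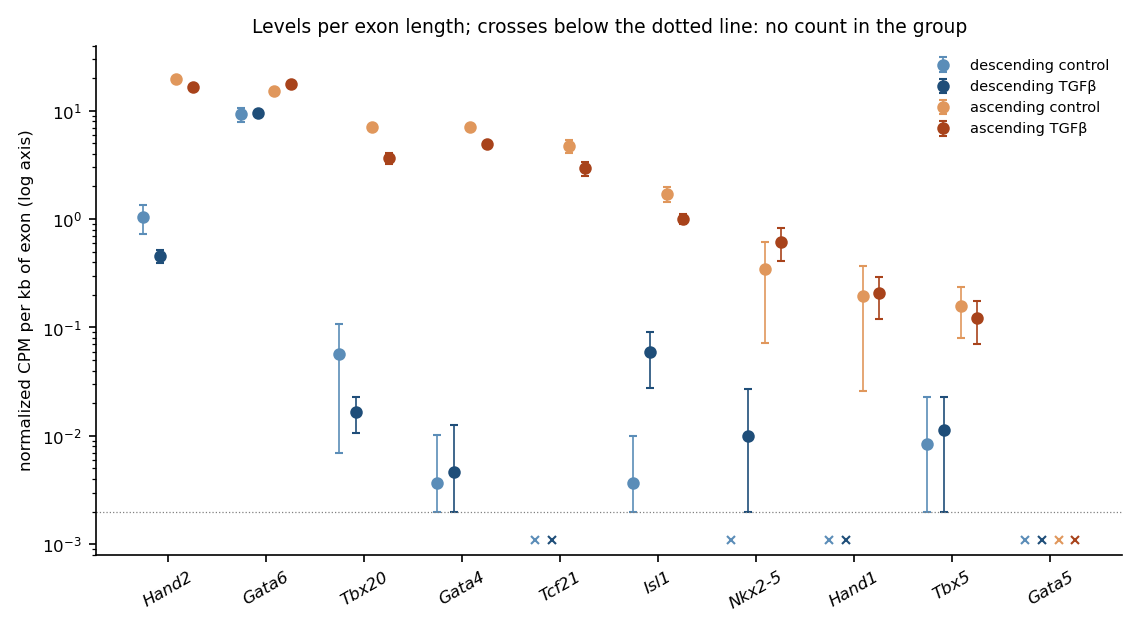
Mean normalized CPM per kilobase of exon (log axis) of each factor in the 4 groups, with the SD of 3 libraries as bars that stop at the dotted line, and crosses for groups without a count. *Hand2* leads in ascending control at 19.7 and *Gata6* in ascending TGFβ at 17.7, while in descending cells *Gata6* alone stays above 2.

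TGFβ changed 6 of the 8 factors tested in ascending fibroblasts, lowering 5 and raising 1. In this comparison 27.6% of the 13917 genes tested were lower and 28.2% were higher with TGFβ, so a call in either direction was common. The median log2 fold change of the 8 was -0.44 against 0.00 for all genes. *Tbx20* fell most, from 85.4 ± 2.29 to 43.8 ± 4.86 normalized CPM (SD, n = 3 each), with -0.97 as log2 fold change (standard error 0.06, adjusted p = 1.15e-09 in edgeR's test). *Isl1* fell from 6.82 ± 1.09 to 3.99 ± 0.424 (log2 fold change -0.78, standard error 0.16, adjusted p = 0.000655 in the same test). *Tcf21* fell from 11.1 ± 1.47 to 6.89 ± 1.07 (-0.69, standard error 0.14, adjusted p = 0.000396 in the same test).

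*Gata4* fell from 27.4 ± 0.601 to 19.2 ± 0.322 normalized CPM in ascending cells (SD, n = 3 each), with -0.52 as log2 fold change (standard error 0.06, adjusted p = 1.67e-06 in edgeR's test). *Hand2* fell less, from 46.3 ± 2.12 to 38.6 ± 0.785 (-0.27, standard error 0.05, adjusted p = 0.000323 in the same test). In each of these 5 genes every TGFβ library lay below every control library. The share of all genes with such a separation was not counted, and 55.8% of the genes tested here were called in either direction. *Gata6* alone rose, from 99.3 ± 3.62 to 115 ± 1.63 (0.21, standard error 0.04, adjusted p = 0.000307 in the same test), with every TGFβ library above every control library. Relatives of one family therefore moved in opposite directions in the same libraries, *Gata4* down and *Gata6* up.

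For *Nkx2-5* the log2 fold change in ascending cells was 0.79 (95% interval -0.17 to 1.76, adjusted p = 0.152 in edgeR's test) and for *Tbx5* it was -0.37 (-1.31 to 0.58, adjusted p = 0.511), neither of them called. *Hand1* was not tested, with 26 counts in control and 25 with TGFβ over 3 libraries each. The control replicate 1 decided the value of *Nkx2-5*, since without it the log2 fold change was 1.70 (adjusted p = 0.00808). The 6 calls were made in the fit of the 6 ascending libraries. In a fit of all 12 libraries, which shares one estimate of the spread with descending control replicate 3, none of them passed edgeR's test, with adjusted p from 0.0915 for *Tcf21* to 0.410 for *Hand2* and the same directions.

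**Figure D3:**
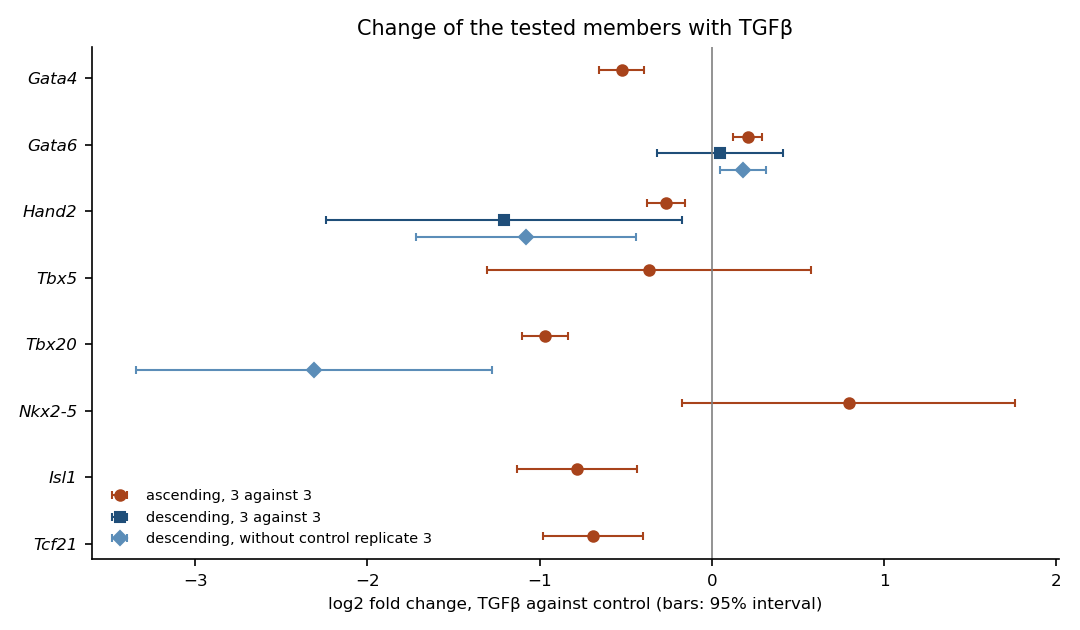
Log2 fold change with TGFβ against control (horizontal axis, bars are 95% intervals) of each factor tested, in ascending fibroblasts (circles), in descending fibroblasts (squares) and in descending fibroblasts without control replicate 3 (diamonds). *Tbx20*, *Isl1*, *Tcf21*, *Gata4* and *Hand2* lie left of 0 in ascending cells, and *Hand2* lies at -1.08 in descending cells without that library.

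In descending fibroblasts only *Gata6* and *Hand2* passed the filter on low counts, and neither was called by edgeR, while 8.07% of the 13825 genes tested were. At an unadjusted p under 0.05 it was 1 of the 2, *Hand2*, and DESeq2's Wald test called 0. The level of *Hand2* was 1.07 ± 0.143 normalized CPM with TGFβ against 2.46 ± 0.741 in the controls (n = 3 each, SD), with -1.21 as log2 fold change (standard error 0.42, adjusted p = 0.155 in edgeR's test). *Gata6* was at 60.1 ± 8.73 in control and 62.3 ± 4.32 with TGFβ, with 0.04 as log2 fold change (standard error 0.15, adjusted p = 0.887 in the same test).

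The descending calls turned on control replicate 3. Without it, *Hand2*, *Tbx20* and *Gata6* were called by edgeR, where 52.9% of 14311 genes were. *Tbx20* was tested only then, having passed the filter through its 2 remaining controls, where it is high, so its call is given as a description. *Hand2* then fell by 1.08 on the log2 scale (standard error 0.31, adjusted p = 0.00449), from 2.24 ± 0.901 normalized CPM (SD, n = 2). *Tbx20* was at 1.03 ± 0.137 (SD, n = 2) in control and 0.200 ± 0.0727 (SD, n = 3) with TGFβ, the latter from 12 counts, and its fitted log2 fold change was -2.31 (standard error 0.51). *Gata6* rose by 0.18 (standard error 0.07, adjusted p = 0.0221), from 55.1 ± 1.46 (SD, n = 2). For *Hand2* and *Gata6* these directions were those in ascending cells. *Isl1* did not pass the filter in descending cells and had 14 counts with TGFβ against 1 in control, a ratio of 14.96 (95% counting interval 2.28 to 633), and 11.5 (1.75 to 488) without replicate 3.

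Whether the response to TGFβ differed between the sites was tested by the interaction over all 12 libraries. It was called for 1 of the 8 factors tested, *Isl1*, while 0.806% of 14637 genes were called in either direction. The interaction of *Isl1* was -4.24 (standard error 0.82, adjusted p = 0.0482 in edgeR's test), its level being lower with TGFβ in each ascending library, while the descending TGFβ libraries had 7, 2 and 5 counts, the 2 being under the floor. The descending controls held 1 count, so the size of this fitted value depends on the prior count. The value was -3.98 (standard error 0.94, adjusted p = 0.00445) without descending control replicate 3. With any 1 of the other 11 libraries left out it was not called, the adjusted p being 0.0507 without descending control replicate 2.

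The interaction of *Hand2* was 0.93 (standard error 0.28, adjusted p = 0.218 in edgeR's test), and 0.83 (standard error 0.24, adjusted p = 0.0241) without descending control replicate 3, a larger fall in descending cells. It was called without descending control replicate 2 too (1.18, adjusted p = 0.0248). That of *Tbx20* was 0.90 (standard error 0.81, adjusted p = 0.663), and 1.34 (standard error 0.43, adjusted p = 0.0369) without descending control replicate 3, in the same direction. For *Gata6* the interaction was 0.16 (95% interval -0.17 to 0.49), and 0.03 (-0.12 to 0.19) without descending control replicate 3. *Gata4*, *Tbx5* and *Nkx2-5* were not called either way and had intervals wider than 5 on the log2 scale with all libraries, since their descending groups held few counts. *Tcf21* had none there, and no response could be set against its fall in ascending cells.

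Reads counted on a neighbouring or antisense gene can share sequence with these factors, and the strand setting of the counting is not given in the sources used here. Of the 50-base exon sequences of *Hand2*, 15.8% occur in another gene, mostly *Hand2os1*, an antisense transcript that is not analysed here. For *Gata5* the share was 5.05%, with *Gata5os*, which had no count either, and for the other 8 it was at most 0.682%. *Gm10824*, which overlaps *Tcf21* on the opposite strand, had 18, 16 and 8 counts in ascending control, 7, 25 and 9 in ascending TGFβ and none in descending libraries. Its site difference thus had the direction of *Tcf21*, while its log2 fold change with TGFβ in ascending cells was 0.02 (95% interval -0.96 to 1.00).

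*1010001N08Rik*, which starts 503 bases from *Gata6* on the opposite strand, was at 7.29 ± 1.04 normalized CPM in ascending control and 1.59 ± 1.20 in descending control (SD, n = 3 each; 2.28 ± 0.146 without replicate 3, n = 2). It was called between sites with TGFβ (log2 fold change 1.12, adjusted p = 5.45e-05 in edgeR's test) and not in control (2.18, adjusted p = 0.298), where it was called without descending control replicate 3 (1.69, adjusted p = 1.09e-05). It fell in ascending cells with TGFβ (-0.51, adjusted p = 0.0211), the direction opposite to that of *Gata6*. *Gm43050*, beside *Tbx5*, had at most 3 counts in a library. Of the genes next to *Hand2* in RefSeq, picked after their values were seen, *5033428I22Rik* was at 11.4 ± 0.928 in ascending and 0.253 ± 0.286 normalized CPM in descending control cells (log2 fold change 5.38, adjusted p = 0.0367, and 4.94, adjusted p = 7.93e-09, without replicate 3) and fell with TGFβ in ascending cells (-0.50, adjusted p = 0.00123), the directions of *Hand2*.

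Relatives of the factors in the same families are given for comparison. In control cells 0 of 3 tested GATA relatives were called by edgeR, 1 at an unadjusted p under 0.05 and 1 by DESeq2, beside 2.65% of all genes by edgeR and 8.17% by DESeq2. *Gata2*, known from blood and endothelium, was at 15.4 ± 1.91 in ascending and 27.7 ± 3.22 normalized CPM in descending control cells (SD, n = 3 each), and was called without descending control replicate 3 (log2 fold change -0.78, adjusted p = 8.31e-05). With TGFβ it was lower in ascending cells (log2 fold change -0.78, adjusted p = 1.61e-08), opposite to *Gata4* and *Gata6*. Of 8 tested T-box relatives 2 were called in control, both lower in ascending cells, *Tbx15* (-1.61, adjusted p = 0.00784) and *Tbx3* (-1.60, adjusted p = 0.0314), where *Tbx20* was higher, beside 1.47% of all genes lower. *Tbx18*, an epicardial T-box gene, was present at both sites, at 44.9 ± 2.63 in ascending and 30.6 ± 5.19 in descending control (27.6 ± 0.0565 without replicate 3, n = 2), and rose with TGFβ in ascending cells (0.59, adjusted p = 1.09e-07). Without that library the control counts were 1 of 3 GATA and 6 of 8 T-box relatives, 2 of the latter higher in ascending cells, beside 31.6% of all genes. With TGFβ, 2 of 3 GATA relatives (1 higher in ascending cells) and 5 of 7 T-box relatives (2 higher) were called between sites, beside 36.3% of all genes.

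Among the bHLH relatives, *Tcf24* was the 1 of 5 called in control, lower in ascending cells (log2 fold change -3.25, adjusted p = 0.0123 in edgeR's test), against the direction of *Tcf21* and *Hand2* and beside 1.47% of all genes lower. *Twist1*, a mesenchymal bHLH factor, was at 32.8 ± 2.15 in ascending and 26.6 ± 4.03 normalized CPM in descending control (adjusted p = 0.480, and 0.0650 without replicate 3). *Scx*, the tendon factor, rose with TGFβ in ascending cells (1.71, adjusted p = 3.44e-06), where *Hand2* and *Tcf21* fell. Of the LIM homeodomain relatives of *Isl1*, 0 of 3 tested were called in control by edgeR, 3 at an unadjusted p under 0.05 and 3 by DESeq2, where the shares of all genes were again 2.65% and 8.17%. *Lhx8* had no count in the 6 ascending libraries and was at 1.52 ± 1.20 in descending control (0.833 ± 0.197 without replicate 3, n = 2), and *Isl2* was at 0.568 ± 0.0581 in ascending against 0.0419 ± 0.0434 in descending control (0.0628 ± 0.0338). Of 8 NK2 relatives only *Nkx3-2*, a skeletal and splenic factor, exceeded the floor, at 2.19 ± 0.177 in ascending and 1.20 ± 1.04 in descending control (1.80 ± 0.0357 without replicate 3, n = 2). Without that library, 2 of 5 bHLH and 3 of 3 LIM homeodomain relatives were called in control, beside 31.6% of all genes. With TGFβ, 3 of 4 bHLH (1 higher in ascending cells), 5 of 5 LIM homeodomain (2 higher) and 1 of 1 NK2 relatives (higher) were called between sites, beside 36.3% of all genes.

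**Figure D4:**
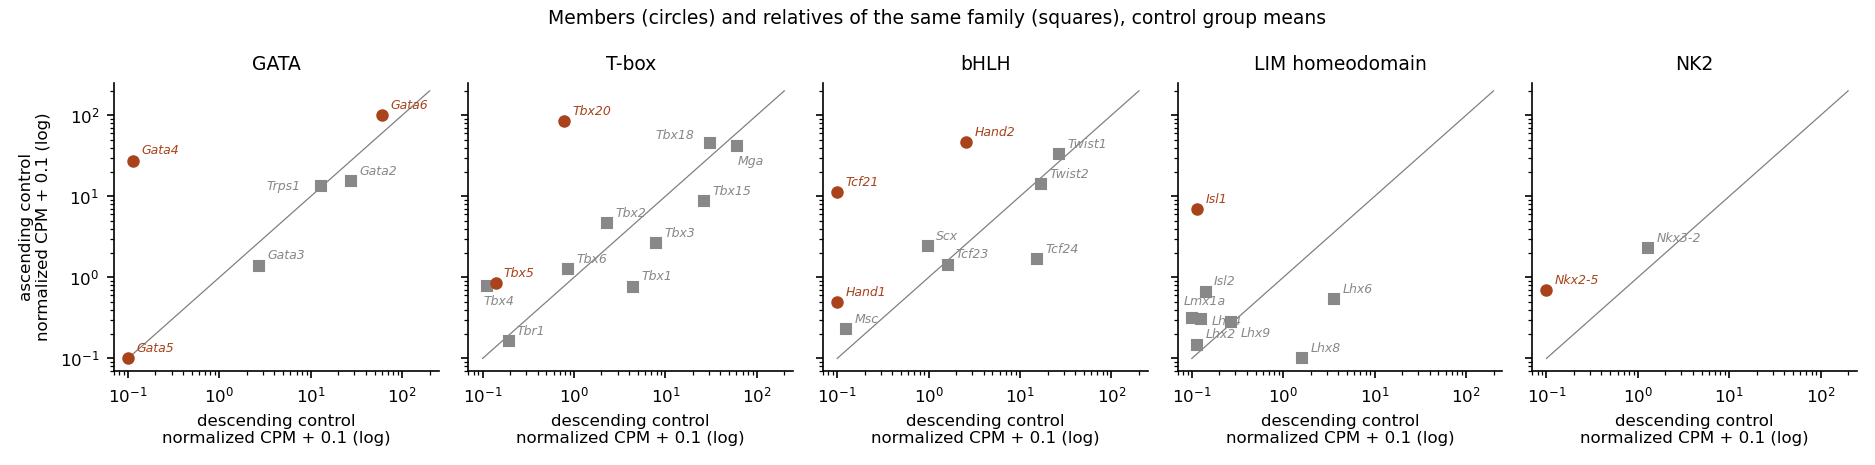
Mean normalized CPM + 0.1 in ascending control (vertical, log axis) against descending control (horizontal, log axis) of the 10 factors (circles) and of relatives with more than 3 counts in some library (squares), 1 panel per family, with the line of equal levels. *Gata4*, *Tbx20*, *Hand2*, *Tcf21* and *Isl1* stand far above the line, while *Tbx15*, *Tbx3*, *Tcf24* and *Lhx8* lie below it.

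HAND and TCF21 proteins bind DNA as dimers with E-proteins, which Id proteins hold back. In ascending cells with TGFβ, 6 of the 7 partners fell and 0 rose, beside 27.6% of all genes lower, with *Id2* at -1.39, *Id4* at -1.30 and *Id1* at -1.09 (adjusted p from 6.17e-12 to 2.29e-05 in edgeR's test) and E-protein genes *Tcf3* and *Tcf4* at -0.36 and -0.33. Between sites in control 1 of 7 was called, *Id4*, at 4.32 ± 0.252 in ascending and 49.4 ± 14.2 normalized CPM in descending cells (log2 fold change -3.51, adjusted p = 0.00397, and -3.25, adjusted p = 1.05e-11, without replicate 3). This became 5 of 7 without descending control replicate 3, each lower in ascending cells, beside 15.2% of all genes. Of the 26 cofactors and other cardiac regulators tested in control, 1 was called, *Tbx3*, beside 2.65% of all genes, and without that library 16 of 27, 10 of them higher in ascending cells, beside 31.6%. *Zfpm2*, whose protein binds GATA4, was at 79.6 ± 2.48 in ascending and 70.0 ± 13.8 in descending control cells (adjusted p = 0.628; 62.1 ± 1.20 and adjusted p = 0.000138 without replicate 3, n = 2), so that this partner was present at both sites where *Gata4* was not. With TGFβ in ascending cells 7 of 25 cofactors rose and 7 fell, with a median log2 fold change of 0.07, a share close to the 28.2% and 27.6% of all genes.

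Markers of other cell types were counted beside these results. The 8 fibroblast markers, collagens, *Dcn*, *Lum* and *Pdgfra* among them, summed to 27864 to 44588 normalized CPM and were all above the floor in every library. The largest part of the sum was *Fn1*. Between sites in control 2 of 8 were called, 1 in each direction, beside 2.65% of all genes. *Pdgfra* was at 184 in ascending and 371 normalized CPM in descending control. With TGFβ in ascending cells 4 rose and 4 fell, beside 28.2% of all genes higher and 27.6% lower. *Pdgfra* (184 to 55.2 normalized CPM), *Dcn* (197 to 85.3) and *Lum* (17.7 to 2.28) were among those that fell. The 17 cardiomyocyte markers summed to 13.9 to 17.5 in ascending control and 5.58 to 9.15 in descending control, with 5 to 7 and 3 to 9 of them above the floor. *Myh6* and *Mybpc3*, which encode proteins of the cardiac sarcomere, had no count in any group, while *Tnnt2* was at 6.58 ± 1.03 in ascending and 0.700 ± 0.476 in descending control (adjusted p = 0.0854 in edgeR's test). *Myl4* was at 5.23 in ascending and 2.45 in descending control. Of 5 cardiomyocyte markers tested in control 0 were called by edgeR, 1 at an unadjusted p under 0.05 and 1 by DESeq2 (2.65% and 8.17% of all genes). Of these 5, 2 were called without descending control replicate 3 (31.6% of all genes), *Tnnt2* (log2 fold change 3.67, adjusted p = 6.99e-06) and *Myl4* (0.52, adjusted p = 0.0399), both higher in ascending cells. With TGFβ the ascending libraries summed to 9.50 to 11.2, below each ascending control, and 3 of 4 tested were called, all lower, *Tnnt2* (6.58 to 3.45 normalized CPM), *Myl4* and *Myl2*, beside 27.6% of all genes lower. The part of cardiomyocytes in the site differences of the factors and in their fall with TGFβ was not tested.

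The 12 mesothelial and epicardial markers summed to 306 to 317 normalized CPM in ascending and 139, 139 and 273 in descending control, the 273 being replicate 3, with 9 and 5 to 7 above the floor. *Upk3b* (log2 fold change 5.22), *Upk1b* (2.05) and *Aldh1a2* (1.52) were higher in ascending control cells (adjusted p from 0.00717 to 0.0461 in edgeR's test), while *Wt1* and *Krt8* had no count there. These were 3 of 8 tested, beside 2.65% of all genes, and 9 of 9 were called without descending control replicate 3, 8 of them higher in ascending cells, beside 31.6%. The lower one was *Krt19*, a keratin, at 3.71 in ascending and 10.0 normalized CPM in descending control (log2 fold change -1.43, adjusted p = 0.0651, and -1.62, adjusted p = 1.02e-06 without that library). With TGFβ in ascending cells 5 of 9 tested were called, 4 lower and 1 higher, with a median log2 fold change of -0.19, beside 27.6% of all genes lower and 28.2% higher. *Upk3b* (-0.89) was among the lower ones and *Tbx18* (0.59) was the higher one. The 6 Schwann and glial markers summed to 24.1 to 29.5 in ascending and 17.4, 15.04 and 24.7 in descending control, the last being replicate 3, and *Sox10* and *Foxd3* had no count in descending cells. Of 5 tested in control 1 was called, *Sox10*, higher in ascending cells (1.19% of all genes), and 4 of 5 without descending control replicate 3, all higher (16.4% of all genes). Not called in either fit was *S100b*, which made up most of the sum. It was at 15.85 in ascending and 18.3 normalized CPM in descending control. Without replicate 3 the log2 fold change of *S100b* was 0.08 (adjusted p = 0.662 in edgeR's test). *Sox10* was at 2.22 ± 0.240 in ascending control and 2.17 ± 0.620 with TGFβ. With TGFβ, 7 of 7 mesothelial and epicardial markers tested were called between sites, 6 of them higher in ascending cells, and 3 of 4 Schwann and glial markers, all higher, beside 18.1% of all genes higher and 18.2% lower. The part of these cell types in the site differences of the factors was not tested.

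The 8 macrophage markers summed to 58.7, 378 and 61.0 normalized CPM in the 3 ascending controls, replicate 2 being the high one, and to 31.8 to 46.2 in ascending TGFβ libraries, and 7 of 8 fell with TGFβ there, beside 27.6% of all genes. Between sites in control 0 of 8 were called by edgeR, 3 at an unadjusted p under 0.05 and 1 by DESeq2 (2.65% and 8.17% of all genes), and 6 of 8 without descending control replicate 3, all higher in ascending cells (16.4% of all genes). With TGFβ 4 of 8 were called between sites, all higher in ascending cells, beside 18.1% of all genes. The part of macrophages in the site differences of the factors and in their changes with TGFβ was not tested. Without ascending control replicate 2, in which *Tcf21* had its highest value, 6 factors were called with TGFβ in ascending cells, beside 52.3% of all genes. That fit does not test the part of macrophages. The controls left in it, at 58.7 and 61.0 for these markers, still lay above the 31.8 to 46.2 with TGFβ. The 7 endothelial markers summed to 24.4 to 27.9 in ascending control and 4.85 to 5.72 with TGFβ, most of it *Tek*, and *Tie1* had no count in any group. The 7 smooth muscle markers summed to 1582 to 1696 in ascending control and 5108 to 5194 with TGFβ. In descending cells these were 2511 to 2556 and 7960 to 8381, so the sum was higher with TGFβ at both sites and lower in ascending cells. Most of the sum was *Acta2*, smooth muscle actin, at 1488 in ascending and 2310 normalized CPM in descending control. With TGFβ in ascending cells 5 of the 7 rose and 2 fell, beside 28.2% of all genes higher and 27.6% lower. Those that fell were *Myh11*, smooth muscle myosin (log2 fold change -0.63, adjusted p = 5.25e-05), and *Des*, desmin (-1.35, adjusted p = 0.000542). *Des* was at 2.99 in ascending and 1.76 in descending control, against the direction of the sum.

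**Figure D5:**
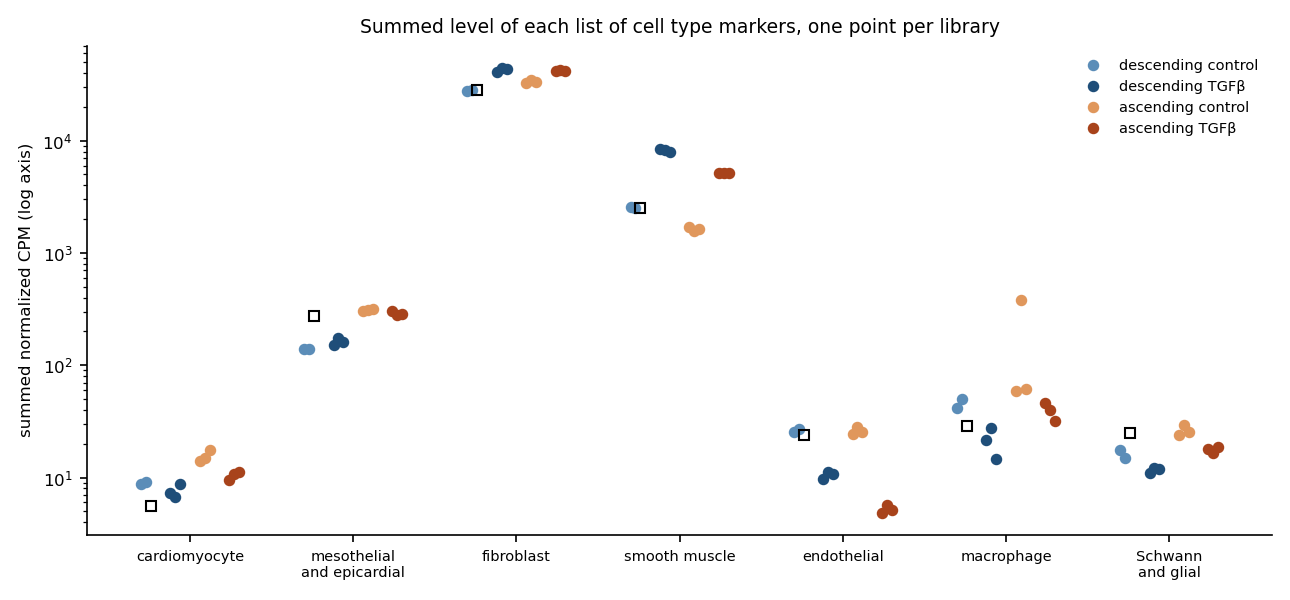
Summed normalized CPM (log axis) of each list of cell type markers, 1 point per library, coloured by group, with descending control replicate 3 as an open square. Fibroblast markers lie at 27864 or above in every library, cardiomyocyte markers between 5.58 and 17.5, and one ascending control library stands out at 378 for macrophage markers.

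The genes whose pattern was most like that of a factor were ranked by Pearson's r of log2 normalized CPM over the 12 libraries among 14637 genes. These libraries fall into 2 sites, so r mainly reflects the site difference and is given as a description without p. *Gata4* and *Tcf21* were each other's nearest gene, at r = 0.998, followed for both by *Sox10* and *Pcolce2*, at 0.995 and 0.994 for *Gata4*. *Hand2* was nearest to *Pcolce2*, *Adamtsl3* and *Edn1*, at 0.994 to 0.986. *Tbx20* was nearest to *Gm13293*, *Lama5* and *Hsd11b1*, at 0.992 to 0.991, and *Isl1* to *Chmp4c*, *Plekha7* and *Ngfr*, at 0.988 to 0.986. Without descending control replicate 3 the nearest genes were *Tcf21* for *Gata4*, *Pcolce2* for *Hand2*, *Mmp16* for *Tbx20*, *Ezr* for *Tcf21* and *Plekha7* for *Isl1*, so that of the 5 factors 2 kept their nearest gene.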

How the data were processed

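RNA-seq counts per gene of 12 libraries were analysed. The authors deposited whole-number counts that were not normalized, and the submitters' processing notes name FastQC, STAR, featureCounts, DESeq2 and mm10, while strand setting and handling of multimapped reads are not given in the sources used here. Low counts were filtered with filterByExpr (minimum count 10, minimum total 15), libraries were scaled by TMM, and groups were compared with edgeR 4.0.16 (glmQLFit and glmQLFTest, R 4.3.3) on the libraries compared, or on all 12 for the interaction, with Benjamini-Hochberg adjustment over all genes tested. Of the per-sample columns 0 were unused. Fold changes of genes with 1 to 3 counts in a group are ratios of summed counts with exact (Clopper-Pearson) intervals at 95%, and of genes with none are bounds at 3 counts per library. *Hand1* was tested by exact permutation (Python 3.11.15, numpy 2.4.6). DESeq2 1.42.0, other filters and scaling, thinned counts, a replicate block and leaving out libraries were alternatives, and scripts were tested on simulated data. Positions and exon lengths are from GENCODE on GRCm38. The members and lists were chosen with earlier results of these data known. Named were all members, their neighbours within 2000 bases, and up to 3 genes per list and direction with the smallest adjusted p in the control site comparison. Other named list genes were picked after their values were seen. Figures were drawn with matplotlib 3.10.9.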

Additional observations from a re-analysis of the deposited data

Results flagged for a closer look

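By the interaction in edgeR over all 12 libraries, the change with TGFβ was called different between ascending and descending fibroblasts for *Isl1* (log2 difference -4.24, adjusted p = 0.0482). Its descending controls held 1 count, and it passed the filter only through its ascending libraries, so the call is a description. It was lost with any library but descending control replicate 3 left out. It was also lost without a filter, with thinned counts and with the replicate number as a block. Of the marker genes, the same test separated the sites for *Aldh1a2*, an enzyme of retinoic acid synthesis (1.16), and for *Tek*, the angiopoietin receptor (-1.06). The groups held 3 libraries each, too few to look for a single outlying value within a group.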

How the results depend on the processing

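Of 448 log2 fold changes of the factors under the alternatives, 386 kept their direction and side of the threshold, 19 passed it newly, 36 no longer passed it and 7 changed sign. The changes of sign were in values that were not called, and each came with single libraries left out: *Tbx5* with TGFβ in ascending cells (-0.57 to 0.11, positive without ascending control replicate 3), *Gata6* with TGFβ in descending cells (-0.021 to 0.18, negative without descending control replicate 2 and, at -0.00074, without descending TGFβ replicate 2), and the interactions of *Gata4* (-2.42 to 1.34, positive without descending TGFβ replicate 2), *Tbx5* (-3.57 to 0.38, positive without descending TGFβ replicate 2 and, at 0.05, without descending control replicate 2) and *Nkx2-5* (-1.58 to 0.83, positive without descending TGFβ replicate 1). The cause was not tested. Of the factors, 5 were called between sites in control, 6 with DESeq2, which adds *Gata6*, 8 in a fit of all 12 libraries, 1 with at least 10 counts in every library, which leaves few of them tested, and 2 to 7 with single libraries left out. With TGFβ the count between sites went from 7 to 2 with at least 10 counts in every library and to 9 without a filter, which adds *Hand1* and *Tbx5*, and lay at 7 to 8 with single libraries left out. For TGFβ in ascending cells it went from 6 to 0 in the fit of all 12 libraries and lay at 6 to 7 with libraries left out. In descending cells it went from 0 to 2 in the fit of all 12, to 3 with DESeq2 without descending control replicate 3, an alternative chosen after seeing the data, and lay at 0 to 3 with libraries left out. For the interaction it went from 1 to 2 with DESeq2, to 3 with DESeq2 without that library, and to 0 without a filter, with at least 10 counts in every library or with thinned counts, and lay at 0 to 3 with libraries left out. The difference of *Hand1* between sites was 0.398 to 0.526 with libraries left out.

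Same-numbered libraries did not deviate together (correlations from -0.026 to 0.0655), so the numbers were not taken to pair samples. With the replicate number as a block 0 factors were called between sites in control (adjusted p from 0.0720 for *Gata4* and *Hand2* upwards in edgeR's test) and 0 in the interaction, and the block changed no other count of factors called.

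Over all genes, the 374 calls between sites in control became 1151 with DESeq2, 3804 with DESeq2 without descending control replicate 3, 1545 in the fit of all 12, 0 with the block and 33 to 4631 with libraries left out. With TGFβ the 4963 became 1106 in the fit of all 12, where the 7767 for TGFβ in ascending cells became 2338. The 1115 for TGFβ in descending cells became 2531 with DESeq2, 6582 with DESeq2 without that library, 3570 in the fit of all 12, 95 with the block and 213 to 7576 with libraries left out. The 118 of the interaction became 497 and 1849 with DESeq2 with and without that library, 56 without a filter, 50 with the block and 25 to 2022 with libraries left out. At this depth *Gata5* had no count in any library.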
